A study of Mus musculus with 6 samples.

Results

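Interferon regulatory factors and STAT proteins were followed in Hepa1-6 cells, a mouse liver cancer line, through 8 genes chosen by symbol: Irf1, Irf2, Irf3, Irf5, Irf7, Irf9, Stat2 and Stat3. All 8 were found among the 55573 rows of the table and all 8 were among the 14842 genes with enough counts to test. Bulk RNA-seq was available for 6 libraries, 3 from Matr3 knockout cells (KO), edited by CRISPR/Cas9, and 3 from wild-type cells (WT) of the same line, all grown in DMEM with fetal bovine serum. The labels name no interferon or other stimulus, and they leave unstated whether libraries of a group are separate cultures and whether the knockout is 1 clone. P-values therefore reflect only library-to-library spread, which may be technical. Matr3 encodes matrin 3, a nuclear RNA- and DNA-binding protein, and the series title links it with DHX58, an RNA sensor, and with type I interferon.

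IRFs share a DNA-binding domain that reads the interferon-stimulated response element (ISRE), while STATs are latent factors that Janus kinases phosphorylate at cytokine receptors. IRF3 and IRF7 are activated downstream of nucleic acid sensors and switch on interferon genes; STAT2 and IRF9 are subunits of the complex ISGF3, which switches on interferon-stimulated genes; IRF1 is an inducible activator and IRF2 is known mainly as its antagonist. In liver cells STAT3 carries the signal of IL-6 family cytokines to acute-phase genes. Activation of most of these proteins is by phosphorylation, which mRNA counts do not measure.

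Interferon and cytokine signals are known to act on several of these genes through their promoters, so 4 promoters are shown: those of Irf1 and Irf7, the 2 genes that rose, that of Stat2, whose call depended on 1 library, and that of Irf2, which holds both motifs searched. The sequences are from RefSeq (GRCm38.p6), run 5′ to 3′ from 250 bases before to 50 bases after the first listed start site, and carry in capitals the matches to an ISRE core (GAAA, any 2 bases, GAAA) or to a STAT site (GAS) core (TTC, any 3 bases, GAA), each searched on both strands. No 2 matches overlap in the promoters shown. They lie at chr11:53769764-53770063 (Irf1, plus strand), chr8:46739495-46739794 (Irf2, plus strand), chr7:141266375-141266674 (Irf7, minus strand) and chr10:128270248-128270547 (Stat2, plus strand).
Irf1: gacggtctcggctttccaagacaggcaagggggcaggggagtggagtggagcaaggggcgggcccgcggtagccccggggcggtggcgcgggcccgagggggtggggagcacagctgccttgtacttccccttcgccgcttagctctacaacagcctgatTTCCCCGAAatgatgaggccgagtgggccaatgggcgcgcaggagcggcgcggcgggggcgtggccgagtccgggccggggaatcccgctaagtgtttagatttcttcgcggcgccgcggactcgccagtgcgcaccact
Irf2: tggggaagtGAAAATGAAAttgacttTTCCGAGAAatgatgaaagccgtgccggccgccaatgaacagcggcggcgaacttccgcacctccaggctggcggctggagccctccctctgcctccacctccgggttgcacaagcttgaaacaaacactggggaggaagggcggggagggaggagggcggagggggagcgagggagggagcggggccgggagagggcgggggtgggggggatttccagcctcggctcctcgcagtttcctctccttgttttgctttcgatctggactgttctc
Irf7: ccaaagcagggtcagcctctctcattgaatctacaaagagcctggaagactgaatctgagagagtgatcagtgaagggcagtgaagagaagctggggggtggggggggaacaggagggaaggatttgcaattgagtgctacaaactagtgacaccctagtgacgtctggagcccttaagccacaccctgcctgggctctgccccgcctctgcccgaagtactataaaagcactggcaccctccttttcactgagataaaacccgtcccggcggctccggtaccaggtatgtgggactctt
Stat2: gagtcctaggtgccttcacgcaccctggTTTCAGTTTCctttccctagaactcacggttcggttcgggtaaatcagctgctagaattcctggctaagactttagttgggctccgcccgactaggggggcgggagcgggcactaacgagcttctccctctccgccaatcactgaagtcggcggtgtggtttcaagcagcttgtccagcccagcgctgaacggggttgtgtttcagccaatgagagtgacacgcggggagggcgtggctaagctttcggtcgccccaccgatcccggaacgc
The Irf1 promoter held a GAS core 90 to 82 bases before the start. The Stat2 promoter held an ISRE core on the opposite strand 222 to 213 bases before the start, and the Irf2 promoter held an ISRE core at 241 to 232 and a GAS core at 224 to 216 bases before it. No match was found in this window for Irf7, nor in the windows of Irf3, Irf5, Irf9 and Stat3, which says only that these letters are not there. Among 32851 RefSeq promoters of the same length, 3.44% held the ISRE core and 8.3% the GAS core. A match is a description of the sequence, and binding was not measured.

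The libraries held 20736570 to 30794032 counts. In CPM, the count scaled by the TMM-adjusted library size, Matr3 itself read 76.0, 86.1 and 75.3 in the knockout and 129, 125 and 134 in the wild type. Its mRNA was thus lower in each library labelled knockout but still present, and counts summed over a gene cannot show an edited site. Dhx58, the sensor gene of the series title, read 9.43, 10.1 and 9.74 CPM against 6.02, 4.45 and 4.91 CPM. Wild-type library 1 and knockout library 2 stood apart. Wild-type library 1 had counts in 23440 genes against 20450 to 21217 in the others, and knockout library 2 differed from its group by a chi-square of 55.1 and 66.0 per gene, against 3.43 between knockout libraries 1 and 3. No pair of libraries came within counting noise. Of 12 hepatocyte lineage markers, 4 reached a mean of 1 CPM, led by the transcription factor gene Foxa2, while Ttr and Serpina1a had no counts and the albumin gene Alb (0.0106 CPM in the knockout, 0 in the wild type) and Hnf4a (0.0144 and 0 CPM) were near 0. Of 10 leukocyte markers, 5 had no counts, the pan-leukocyte gene Ptprc was below 0.1 CPM, and the list's summed level of 12.4 to 16.04 CPM in the knockout and 10.8 to 11.9 CPM in the wild type was nearly all Cd68, which other cells also express. Summed markers of stellate cells and fibroblasts (4 of 7 over 1 CPM) were at 544 to 660 CPM in the knockout and 597 to 697 CPM in the wild type, those of cholangiocytes (4 of 5) at 947 to 995 and 764 to 874 CPM, and those of endothelial cells (1 of 7) at 1.196 to 1.66 and 3.04 to 3.97 CPM. The hepatocyte list summed to 19.7 to 28.0 and 24.9 to 27.8 CPM. Nearly all of the stellate cell and fibroblast sum was Col3a1, at means of 578 (knockout) and 636 (wild type) CPM. Col1a2, Dcn and Lum were below 1 CPM. The cholangiocyte and endothelial sums did not overlap between the groups. Within the cholangiocyte list genes went in opposite directions: Krt19 had means of 639 (knockout) and 282 (wild type) CPM, and Spp1 of 308 and 518 CPM. Sox9 was at 19.3 and 18.5 CPM. The endothelial difference was mostly Cdh5, at 0.481 and 2.37 CPM. The part of these marker genes in the results was not tested.

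In the knockout 2 of the 8 genes, Irf1 and Irf7, rose, none fell and 6 did not pass the test (edgeR quasi-likelihood test, called at an adjusted p under 0.05 by the Benjamini-Hochberg method over all tested genes). Across all tested genes 15.2% passed, 7.69% upward and 7.48% downward. At an unadjusted p under 0.05 the counts over the 8 were again 2 higher and 0 lower, and DESeq2, limma voom and limma on FPKM also called none lower. The median log2 fold change of the 8 genes was 0.13, beside -0.02 for all tested genes. A count of 2 in 8 is near that background share and is not read as a result about the group.

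**Figure D1:**
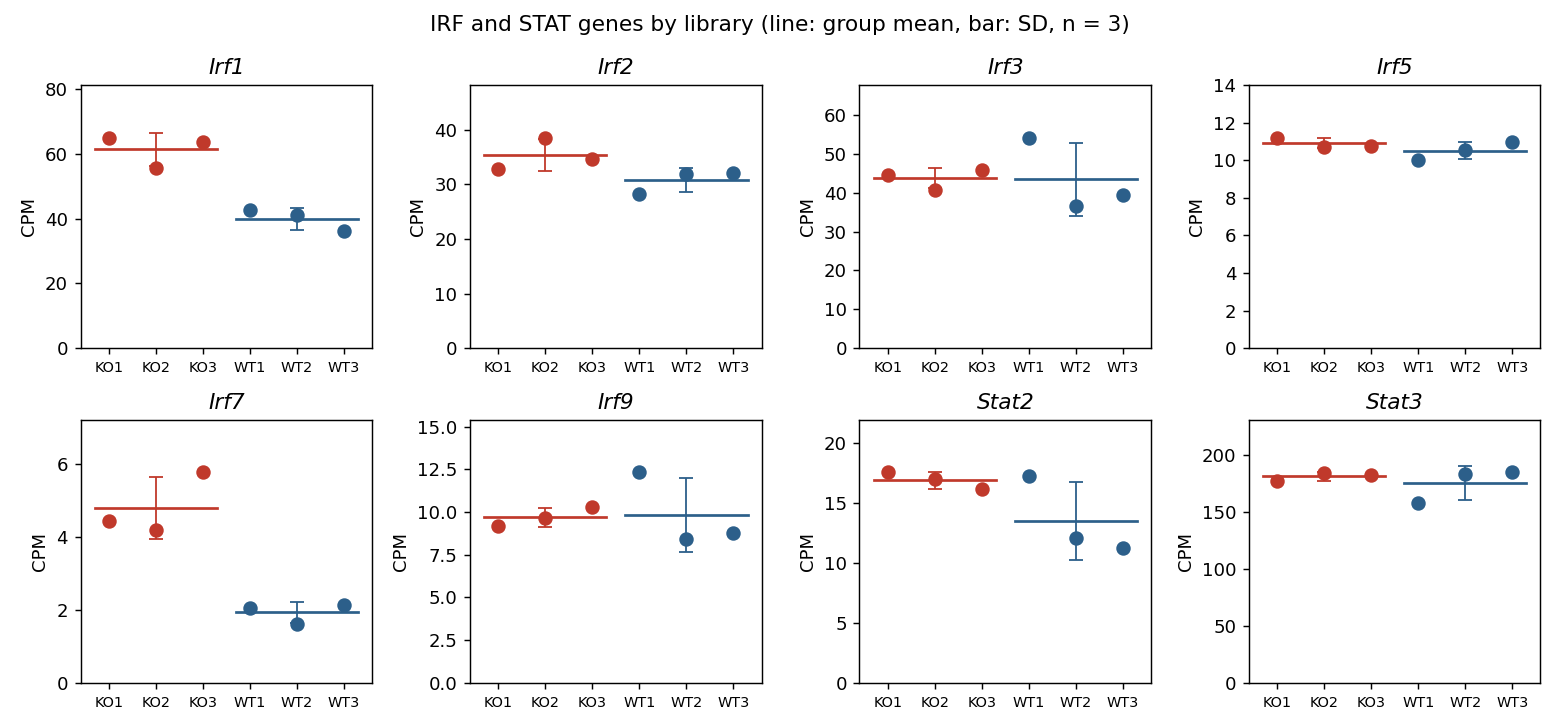
CPM (y axis, linear from 0) of each of the 8 genes in the 3 knockout (KO, red) and 3 wild-type (WT, blue) libraries, with the group mean as a line and the SD as a bar (n = 3). Irf1 and Irf7 separate by group, whereas WT1 lies above the other wild-type libraries for Irf3, Irf9 and Stat2 and below them for Stat3.

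Irf7, the factor that amplifies type I interferon production, was the lowest of the 8 genes in FPKM (deposited counts per length and library size) and had the largest log2 fold change among them. Irf7 read 4.44, 4.18 and 5.77 CPM in KO1, KO2 and KO3 and 2.05, 1.61 and 2.13 CPM in WT1, WT2 and WT3. Every knockout library lay above every wild-type library, and the highest of the knockout values, in library 3, stood apart from the other two. Mean Irf7 went from 1.93 ± 0.281 CPM in the wild type to 4.79 ± 0.853 CPM in the knockout (SD, n = 3 each), a 2.48-fold rise (log2 fold change 1.31, SE 0.226, 95% interval 0.79 to 1.83, edgeR quasi-likelihood adjusted p = 0.00825). Its counts were 103, 131 and 164 in the knockout and 44, 43 and 56 in the wild type. Irf7 (ENSMUSG00000025498) lies on chromosome 7, 140842619 to 140846394, minus strand, in the table's coordinates, whose build is not settled. On the opposite strand it overlaps Phrf1, at means of 112 (knockout) and 121 (wild type) CPM (log2 fold change -0.12, edgeR quasi-likelihood adjusted p = 0.395). No source used here says whether the counting used strand, so a share of the Irf7 counts could come from Phrf1. The part of such reads in the Irf7 rise was not tested. In bulk RNA, more cells with the transcript and more transcript per cell cannot be told apart.

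Irf1, induced by interferon gamma and by NF-kB, rose from a far higher level in FPKM. Irf1 read 65.0, 55.6 and 63.6 CPM in KO1, KO2 and KO3 against 42.5, 41.2 and 36.0 CPM in WT1, WT2 and WT3. The groups did not overlap, with knockout library 2 nearest to the wild type. The means of 61.4 ± 5.06 and 39.9 ± 3.43 CPM (SD, n = 3 each) differed by 1.54-fold (log2 fold change 0.62, SE 0.103, 95% interval 0.38 to 0.86, edgeR quasi-likelihood adjusted p = 0.00733). Irf1 (ENSMUSG00000018899) lies on chromosome 11, 53660841 to 53669200, plus strand, and the transcript Gm17334, which overlaps it on the opposite strand, had 130 counts over the 6 libraries. The calls of Irf1 and Irf7 held in each of the 19 alternatives, the 6 that leave out 1 library among them. The log2 fold change of Irf7 was 0.59 on the log2(FPKM + 1) scale, where the added 1 is of the size of the level itself. Whether the changes of Irf1 and Irf7 differ in size was not tested.

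Irf2, which competes with IRF1 for the same sites, was slightly higher without passing. Irf2 (ENSMUSG00000031627; chromosome 8, 47192767 to 47300493, plus strand) read 32.8, 38.6 and 34.7 CPM in the 3 knockout libraries, and 28.2, 31.9 and 32.1 CPM in WT1 to WT3. The groups did not overlap, by a margin of less than 1 CPM, and 36.6% of all tested genes had groups that did not overlap. The log2 fold change was 0.20 (95% interval -0.04 to 0.44, edgeR quasi-likelihood adjusted p = 0.231). Groups did not overlap in 3 of the 8 genes, Irf1, Irf2 and Irf7.

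Irf3 and Irf5, the constitutive factors downstream of RNA and DNA sensors and of Toll-like receptors, did not pass. Irf3 (ENSMUSG00000003184; chromosome 7, 44647072 to 44652272, plus strand) read 44.7, 40.8 and 45.8 CPM in KO1 to KO3, and 54.2, 36.5 and 39.5 CPM in WT1 to WT3. Wild-type library 1 was the highest of all 6 and the other wild-type libraries were the lowest, so the mean of the wild type (43.4 ± 9.47 CPM) covered the knockout mean (43.8 ± 2.61 CPM; SD, n = 3 each). The log2 fold change was 0.01 (95% interval -0.33 to 0.35, edgeR quasi-likelihood adjusted p = 0.964). Irf5 was the steadiest of the 8 in the wild type, with 11.2, 10.7 and 10.8 CPM in KO1 to KO3 and 10.0, 10.5 and 11.0 CPM in WT1 to WT3 (ENSMUSG00000029771; chromosome 6, 29526624 to 29541870, plus strand). Its log2 fold change of 0.05 (95% interval -0.21 to 0.31, edgeR quasi-likelihood adjusted p = 0.790) leaves room for a change of up to 1.24-fold upward. Irf3 overlaps Bcl2l12 and Irf5 overlaps Tnpo3, both on the opposite strand, and Tnpo3 had means of 132 CPM (knockout) and 150 CPM (wild type).

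Irf9 and Stat2, the DNA-binding and transactivating partners in ISGF3, both had a high value in wild-type library 1. Irf9 (ENSMUSG00000002325; chromosome 14, 55841028 to 55847487, plus strand) read 9.17, 9.64 and 10.3 CPM in KO1 to KO3, and 12.3, 8.42 and 8.75 CPM in WT1 to WT3. As for Irf3, wild-type library 1 was above and the other wild-type libraries below all knockout libraries. The log2 fold change of Irf9 was -0.02 (95% interval -0.41 to 0.38, edgeR quasi-likelihood adjusted p = 0.957). Stat2 (ENSMUSG00000040033; chromosome 10, 128106428 to 128128718, plus strand) read 17.6, 17.0 and 16.2 CPM in KO1 to KO3, and 17.3, 12.1 and 11.3 CPM in WT1 to WT3. Wild-type library 1 fell among the knockout values and the other two lay well below them. Over all libraries the log2 fold change of Stat2 was 0.32 (95% interval -0.06 to 0.71, edgeR quasi-likelihood adjusted p = 0.232), and it did not pass. Irf9 overlaps Rnf31 on the same strand, so reads in the shared part cannot be assigned, while Stat2 is the 1 gene of the 8 that overlaps no other gene in the table.

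Stat3, with the highest FPKM of the 8, did not pass. Stat3 read 177, 184 and 183 CPM in KO1 to KO3, and 158, 183 and 185 CPM in WT1 to WT3. All but wild-type library 1, which was lowest, lay within a narrow range, and the groups overlapped. The log2 fold change was 0.05 (95% interval -0.16 to 0.26, edgeR quasi-likelihood adjusted p = 0.760), which as a fold is 0.893 to 1.20. Stat3 (ENSMUSG00000004040; chromosome 11, 100775924 to 100830366, minus strand) ends 180827 bases from Dhx58 in the table's coordinates, and it overlaps Stat5a on the opposite strand.

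**Figure D2:**
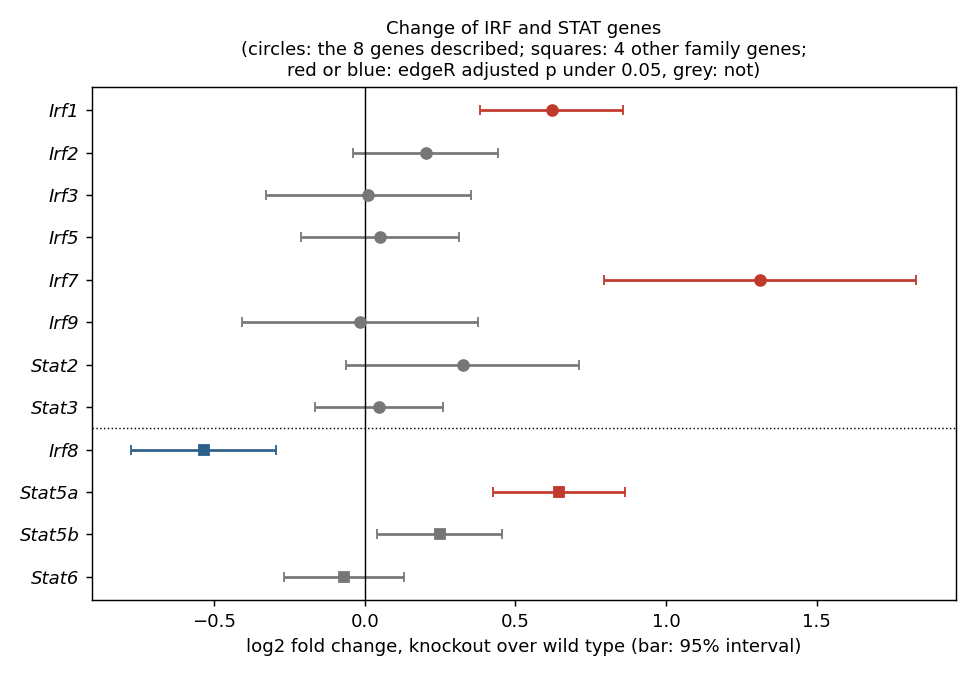
Log2 fold change, knockout over wild type (x axis), with its 95% interval for the 8 genes (circles) and 4 other family genes (squares), coloured where the edgeR quasi-likelihood adjusted p is under 0.05. Irf1, Irf7 and Stat5a lie above 0, Irf8 lies below it, and the intervals of Irf2, Irf3, Irf5, Irf9, Stat2, Stat3 and Stat6 cross 0. The interval of Stat5b, 0.04 to 0.46, is not adjusted for the number of genes and lies above 0, although Stat5b did not pass.

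The values of the ISGF3 partners and of Irf3 turned on wild-type library 1. Its CPM was 1.48 times the mean of the other wild-type libraries for Stat2, 1.43 times for Irf9 and 1.43 times for Irf3, but 0.859 times for Stat3 and 0.881 times for Irf2. Without this library Stat2 was called higher, with a log2 fold change of 0.55 (edgeR quasi-likelihood adjusted p = 0.0266; range over 18 fits 0.00113 to 0.515), in a fit that called 13.5% of the tested genes. Irf3 was then at 0.22 (edgeR quasi-likelihood adjusted p = 0.170) and Irf9 at 0.19 (0.336), neither past the threshold. Without both this library and knockout library 2, Irf1, Irf3, Irf7 and Stat2 were called, with Irf3 at 0.25 (edgeR quasi-likelihood adjusted p = 0.00884), but that fit, which keeps the closest pair of each group, called 51% of all tested genes. Long noncoding RNAs took 0.717% of the counts of wild-type library 1 and 0.354% to 0.430% of those of the others. The part of this difference in the values of Stat2, Irf3 and Irf9 was not tested.

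**Figure D3:**
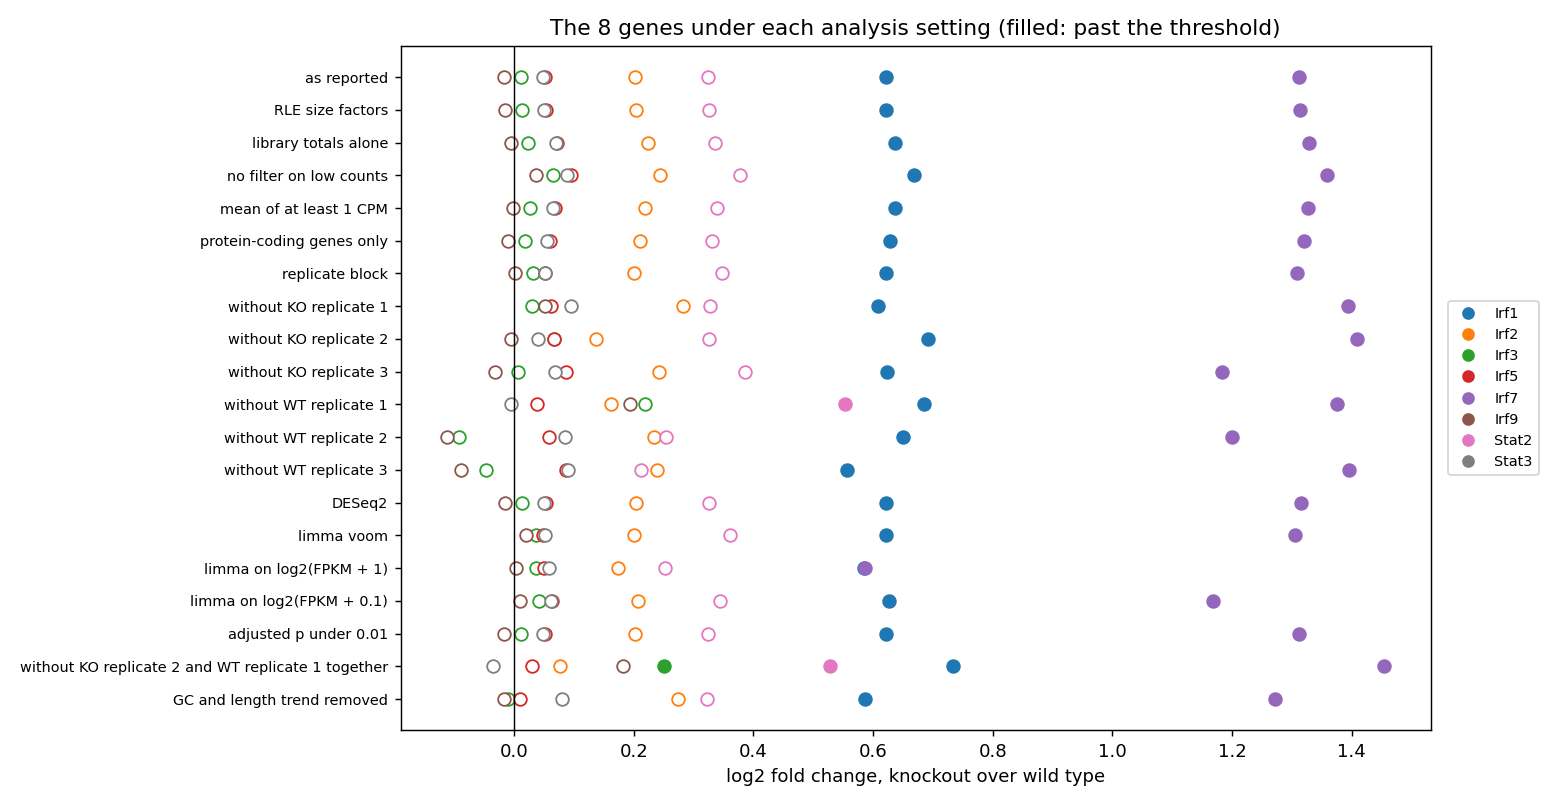
Log2 fold change of the 8 genes (x axis) under the reported analysis and each alternative (y axis), filled where past the threshold of that analysis. Irf1 and Irf7 are filled in every line, Stat2 only in the lines without wild-type library 1, and Irf3 only without both libraries that stand apart.

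Compared per length in deposited FPKM, the levels spanned a wide range. In the wild type Stat3 was highest at 18.3 ± 1.76 FPKM, followed by Irf3 at 12.5 ± 2.58, Irf1 at 9.97 ± 0.787, Irf2 at 4.13 ± 0.339, Irf5 at 3.59 ± 0.194, Stat2 at 2.26 ± 0.518, Irf9 at 1.81 ± 0.376 and Irf7 at 0.508 ± 0.0725 FPKM (SD, n = 3 each). Irf2 and Irf5, and Stat2 and Irf9, overlapped in their ranges over the libraries, although Irf2 was above Irf5 and Stat2 above Irf9 within each of the 3. In the knockout the order was the same except that Irf1, at 15.5 ± 1.199 FPKM, stood above Irf3 at 12.7 ± 0.712 FPKM, and no neighbours overlapped. Irf7 stayed lowest at 1.27 ± 0.225 FPKM. The deposited length of Irf7, 3776 bases, equals its whole genomic span, introns included, whereas for the other 7 genes it was 6.87% to 83.4% of the span. A length that holds introns gives a lower FPKM than a spliced length would.

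Irf1 thus made up 34.0% to 36.6% of the summed FPKM of the 9 IRF genes in the knockout libraries and 24.7% to 28.1% in the wild-type libraries. Irf7 made up 2.63% to 3.37% and 1.16% to 1.54%, whereas Stat3 held 26.1% to 28.4% and 26.1% to 28.7% of the summed FPKM of the 7 STAT genes. The ratio of Irf1 to Irf2 in FPKM, activator over antagonist, was 3.69, 2.68 and 3.41 in the knockout libraries and 2.81, 2.41 and 2.09 in the wild-type libraries. The groups overlapped through knockout library 2 and wild-type library 1 (exact two-sided permutation p = 0.2, adjusted 0.3 over 6 ratios). The ratio of Irf7 to Irf3 was 0.0905, 0.0934 and 0.115 in the knockout and 0.0345, 0.0402 and 0.0491 in the wild type. It did not overlap between groups, at 2.42-fold (exact permutation p = 0.1, the smallest that 3 against 3 libraries can give; adjusted 0.2). The ratio of Irf9 to Stat2 was 0.574, 0.623 and 0.700 in the knockout and 0.785, 0.769 and 0.855 in the wild type. It was lower in every knockout library, although neither gene passed alone (exact permutation p = 0.1, adjusted 0.2), and wild-type library 1 lay with its group in this ratio. The ratio of Irf1 to Irf9 also separated the groups, with means of 8.60 ± 0.913 and 5.63 ± 0.978 (SD, n = 3 each; exact permutation p = 0.1, adjusted 0.2). The ratios Irf5 to Irf3 and Stat3 to Stat2 overlapped between the groups.

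**Figure D4:**
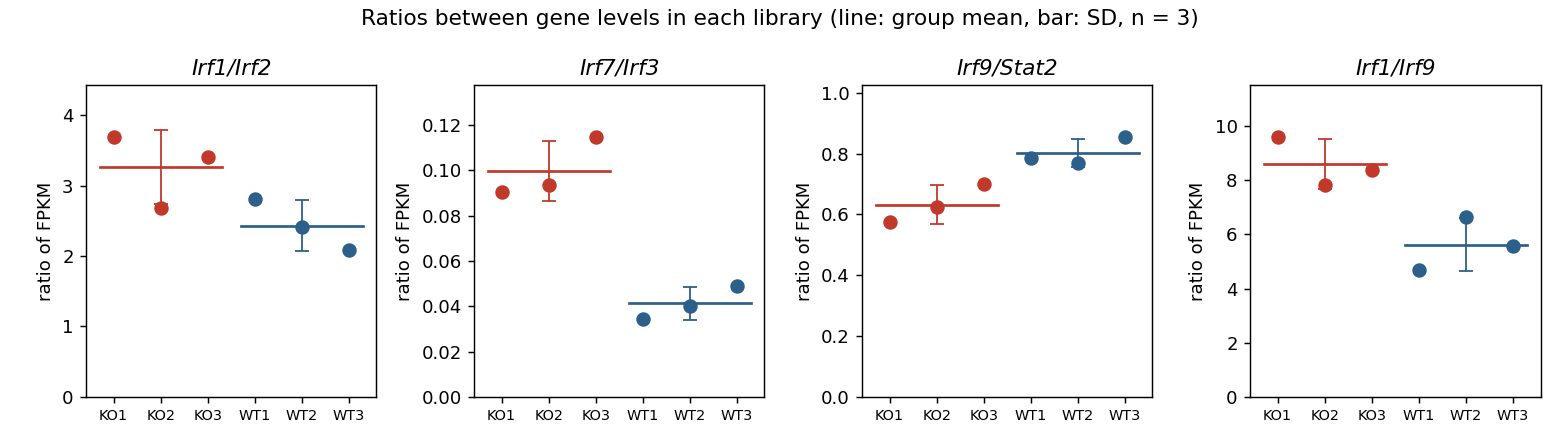
Ratios of deposited FPKM between pairs of genes (y axes, linear from 0) in each knockout (red) and wild-type (blue) library, with the group mean as a line and the SD as a bar (n = 3). Irf7/Irf3 and Irf1/Irf9 are higher and Irf9/Stat2 is lower in all knockout libraries, while Irf1/Irf2 overlaps through KO2 and WT1.

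Of the family genes outside the 8, Irf8, Stat5a, Stat5b and Stat6 are described here. Irf4 and Stat4, best known from lymphocytes, had too few counts to test. Stat5a, which carries growth hormone and cytokine signals, rose from 16.2 ± 0.681 to 25.4 ± 0.521 CPM (SD, n = 3 each; log2 fold change 0.64, SE 0.0961, adjusted p = 0.00469), while Stat3, which overlaps it, and its close relative Stat5b (0.25, edgeR quasi-likelihood adjusted p = 0.10) did not pass. Stat5b was called with library totals alone as the scaling (edgeR quasi-likelihood adjusted p = 0.0479). Irf8, known for its role in myeloid cells, fell from 40.5 ± 1.25 to 28.0 ± 2.96 CPM (SD, n = 3 each; log2 fold change -0.53, edgeR quasi-likelihood adjusted p = 0.0136). In FPKM it stood at 3.97 ± 0.402 and 5.70 ± 0.234 (knockout and wild type). Of the 10 leukocyte markers 5 had no counts, and Cd68 had means of 14.0 (knockout) and 11.0 (wild type) CPM. The part of leukocytes in the Irf8 values was not tested. Leaving out KO1, KO3, WT2 or WT3 ended the Irf8 call (edgeR quasi-likelihood adjusted p from 0.0512 to 0.0666). Stat6, the IL-4 and IL-13 factor, had the highest FPKM of the IRF and STAT genes described here, 28.5 ± 1.97 in the knockout and 29.7 ± 0.420 in the wild type. It did not pass (log2 fold change -0.07).

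Irf1 and Irf7 are also the 2 of the 8 genes that pass an adjusted p of 0.05 in the authors' deposited table, where 9.98% of genes with a value do. Irf1 stands there at a log2 fold change of 0.60, Irf7 at 1.00, Stat2 at 0.30 and Irf2 at 0.20 in the authors' deposited table. Its Irf7 value is below the 1.31 obtained here from the counts.

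Upstream of the 8 factors, calls were among receptors and Janus kinases and none among adaptors, beside 15.2% of all tested genes called. Of 18 tested adaptors and kinases that activate IRF3, IRF5 and IRF7, such as Tbk1, Mavs and Traf6, none passed in either direction (edgeR quasi-likelihood test), with 2 higher and 3 lower at an unadjusted p under 0.05 and 1 lower by DESeq2. Their median log2 fold change was -0.06. Without knockout library 2, 2 of them were called lower, and without both libraries that stand apart 3 were called higher and 8 lower, in fits that called 28.1% and 51% of all tested genes. Of 14 receptors and Janus kinases, 2 rose, 2 fell and 10 did not pass, with a median of 0.06. Lifr, the leukaemia inhibitory factor receptor that signals to STAT3, fell from 26.5 ± 1.00 to 11.7 ± 1.80 CPM (SD, n = 3 each; log2 fold change -1.18, edgeR quasi-likelihood adjusted p = 0.00166), and Il6ra, the IL-6 receptor chain, by 0.48 on the log2 scale (edgeR quasi-likelihood adjusted p = 0.00978). Both feed STAT3, whose own mRNA did not pass. The kinase gene Tyk2, which pairs with the interferon alpha receptor, rose by 0.50, and Ifnlr1 by 1.79, whereas Jak1 (-0.29), Jak2 (0.02) and Jak3 (-0.33) did not pass. Leaving out KO1, KO3, WT2 or WT3 ended the calls of Il6ra and Tyk2 (edgeR quasi-likelihood adjusted p from 0.0591 to 0.119) and left the list at 1 higher and 1 lower. Those fits called 5.28% to 6.07% of all tested genes. The list had 5 higher and 4 lower without both libraries that stand apart, where 51% of all tested genes were called. It had 4 higher, against 2 as reported, in other fits, namely without KO2, after removal of the GC and length trend, scaled by library totals, unfiltered, filtered at 1 CPM, and restricted to protein-coding genes. These called 10.6% to 28.1% of all tested genes.

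Of 28 tested inhibitors and cofactors of IRFs and STATs, 1 rose, 1 fell and 26 did not pass (edgeR quasi-likelihood test; median -0.05), beside 7.69% of all tested genes called higher and 7.48% lower. Ifi35, an interferon-induced protein that binds NMI, rose by 0.73 (adjusted p = 0.0130), and Usp18, which restrains the interferon receptor through STAT2, fell by 1.09 on the log2 scale. Leaving out WT2 or WT3 ended the Ifi35 call, and leaving out KO1, KO3, WT2 or WT3 ended the Usp18 call (edgeR quasi-likelihood adjusted p from 0.0523 to 0.0789). None of the 7 SOCS genes, several of which STATs induce and which restrain cytokine receptors, passed (edgeR quasi-likelihood adjusted p from 0.0713 for Socs2 to 0.820 for Socs6). The list had 5 higher and 2 lower without KO2, in a fit that called 28.1% of all tested genes. It had none lower without KO1, KO3, WT2 or WT3, where 5.28% to 6.07% of all tested genes were called. Without both libraries that stand apart, where 51% of all tested genes were called, it had 10 higher and 7 lower.

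Downstream, the most calls were among the genes listed as induced through ISGF3, whose activity was not measured. Of 40 genes induced through ISGF3, 8 had too few counts to test. Of the 32 tested, 16 rose, 1 fell and 15 did not pass (edgeR quasi-likelihood test). Their median log2 fold change was 0.59, beside -0.02 for all tested genes. The 16 include Dhx58, and Ifi35, which is also counted among the inhibitors and cofactors. Over all tested genes 7.69% were called higher and 7.48% lower. Tor3a, an interferon-responsive torsin, went from 29.8 ± 2.29 to 67.8 ± 1.39 CPM (SD, n = 3 each; log2 fold change 1.18, edgeR quasi-likelihood adjusted p = 0.000309), and Oas1a (2.14), Isg15 (1.42) and Oas3 (0.76) rose too. The Oas1 genes are near-identical copies, and their single values are uncertain. The count of higher genes was 17 without KO2, without WT1 and without both, in fits that called 28.1%, 13.5% and 51% of all tested genes. It was 13 without KO1, 10 without KO3, 9 without WT2 and 10 without WT3. Those last 4 fits called 5.28% to 6.07% of all tested genes. The 1 lower gene, Samd9l, was not called without KO1, KO3 or any 1 wild-type library. Stat2 and Irf9, which encode subunits of ISGF3, did not pass.

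Of 28 genes induced through IRF1, 5 had too few counts to test. Of the 23 tested, 5 rose, 3 fell and 15 did not pass (edgeR quasi-likelihood test, median 0.26). Over all tested genes the shares were again 7.69% higher and 7.48% lower. The nitric oxide synthase Nos2 rose by 0.88 (adjusted p = 0.00349) and Tapbp, which loads peptides onto MHC class I, by 0.87 (0.00669). The guanylate-binding protein gene Gbp4 fell from 1.80 ± 0.350 to 0.0841 ± 0.0128 CPM (SD, n = 3 each; log2 fold change -4.34, edgeR quasi-likelihood adjusted p = 0.000956), on 2, 3 and 2 counts in the knockout libraries, and Nlrc5 fell by 1.87. On the log2(FPKM + 1) scale Gbp4 was at -0.29. Without KO1, KO3, WT2 or WT3 the list had 3 higher and 2 lower, in fits that called 5.28% to 6.07% of all tested genes. Without both libraries that stand apart, where 51% of all tested genes were called, it had 10 higher and 4 lower. Of 36 genes induced through STAT3, 17 had too few counts to test, among them those for serum amyloid A, fibrinogen and haptoglobin. Of the 19 tested, 1 rose, 1 fell and 17 did not pass (edgeR quasi-likelihood test; median -0.08), beside 15.2% of all tested genes called. Lbp, which encodes the lipopolysaccharide-binding protein of the acute phase, fell from 10.7 ± 0.620 to 1.82 ± 0.249 CPM (SD, n = 3 each; log2 fold change -2.54, edgeR quasi-likelihood adjusted p = 0.000194). Birc5, which encodes survivin, rose by 0.37 (adjusted p = 0.0431), a call that ended on leaving out any 1 library but KO2 (adjusted p 0.0712 to 0.140 by edgeR's quasi-likelihood test) and with the replicate number as a block (0.0867). The STAT3 list had 5 higher and 1 lower with no filter on low counts, 6 higher and 4 lower without KO2, none higher and 1 lower without any other single library, and 8 higher and 4 lower without both libraries that stand apart. The fits without KO2 and without both called 28.1% and 51% of all tested genes. The unfiltered fit called 10.6%, that without WT1 13.5%, and those without KO1, KO3, WT2 or WT3 5.28% to 6.07%.

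**Figure D5:**
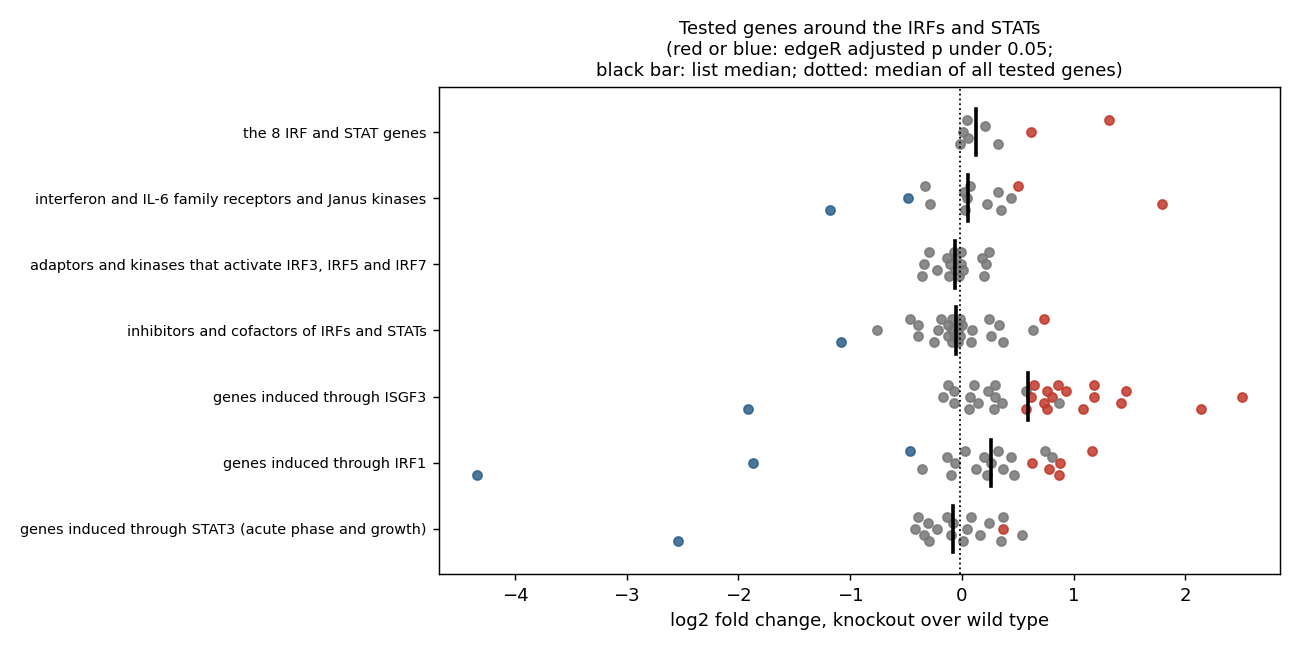
Log2 fold change, knockout over wild type (x axis), of each tested gene in the 8 described and in 6 lists around them (rows), in red or blue where the edgeR quasi-likelihood adjusted p is under 0.05, with the list median as a black bar and the median of all tested genes as a dotted line. The ISGF3 list has 16 red points and a median of 0.59, and the adaptor and kinase list has no coloured point.

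Genes whose pattern over the 6 libraries was most like that of each factor were sought among 9914 protein-coding genes averaging 5 CPM or more, by Pearson correlation of log2(CPM + 1). The points share the 2 groups and the library effects, and with 6 libraries many genes reach a high value. For Irf1 they were Nit1 (r = 0.997) and Rgp1 (0.996), and for Irf7 Des (0.996) and Naa38 (0.996). For Irf2 they were Ints11 (0.997) and Cd9 (0.994), and for Irf5 Crbn (0.983) and Uxs1 (0.974). Irf3 was nearest to Pick1 (0.985) and Nrbp2 (0.980), Irf9 to Zfp263 (0.988) and Per3 (0.988) and Stat2 to 0610030E20Rik (0.989) and Gm12258 (0.989); 5 of these 6 genes, all but 0610030E20Rik, were highest in wild-type library 1. Stat3 was nearest to Got1 (0.995) and Ppm1l (0.991), which were lowest in that library. Among the 8 themselves the highest values were 0.94 between Irf3 and Irf9 and 0.92 between Irf1 and Irf7, and the lowest was -0.86 between Irf3 and Stat3.

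By the table's coordinates 7 of the 8 genes overlap another gene, 6 of them a gene on the opposite strand. Psme2, a proteasome activator gene 12458 bases from Irf9, rose (log2 fold change 0.63, edgeR quasi-likelihood adjusted p = 0.00673), as did Cavin1, 17193 bases from Stat3 (0.49, 0.0318). The Cavin1 call held in 10 of 18 other fits (highest edgeR quasi-likelihood adjusted p 0.125). Scaf1, 100 bases from Irf3, did not pass (0.08, edgeR quasi-likelihood adjusted p = 0.780), nor did the overlapping genes Bcl2l12 (-0.40), Tnpo3 (-0.19) and Rnf31 (0.12).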

How the data were processed

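RNA-seq of 3 Matr3 knockout and 3 wild-type libraries was analysed from 1 deposited table. Its raw counts per gene and FPKM were made by the authors, per the file headers. Deposited signal (group means of scaled counts), log2 fold changes and p-values come from the authors' comparison. The sources used here give no aligner, counter, strand setting or annotation. GRCm38 and mm10 are named in the submitters' processing notes. Of the 8 gene starts in the table, 1 lay within 1 kb of the RefSeq GRCm38.p6 start, so the build of the table's gene coordinates is not settled, and only promoters carry GRCm38.p6 coordinates.

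Groups and replicate numbers came from the sample titles. The test was edgeR 4.0.16 in R 4.3.3 (filterByExpr, TMM, quasi-likelihood F test, no covariate) over 14842 of 27065 genes with counts. Genes were called at a Benjamini-Hochberg adjusted p under 0.05. SEs follow from the F statistic. Libraries of 20736570 to 30794032 counts limit the precision of low genes; reads are not independent molecules. The scripts were tested on simulated data. Alternatives were RLE scaling, library totals, other filters, protein-coding genes only, a replicate block, leaving out each library, DESeq2 1.42.0, limma 3.58.1 (voom, and log2(FPKM + 1) or log2(FPKM + 0.1)) and an adjusted p under 0.01. The removal of the GC and length trend of each library and the fit without both libraries that stand apart were chosen after seeing the data. The members and lists were chosen with earlier results of these data known. Named genes are the 8, their families, Matr3, up to 4 called genes with the smallest p from each list, Janus kinases and Usp18, neighbours, and the 2 genes most alike in pattern; other list genes are named as examples after their values were seen. Some genes of the lists are not reported here.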

Additional observations from a re-analysis of the deposited data

How the results depend on the processing

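Irf1 and Irf7 kept their direction and their call in 18 of 18 other fits and under an adjusted p of 0.01, with log2 fold changes from 0.56 to 0.73 and from 0.59 to 1.45. The count of called members rose from 2 to 4, all higher, without knockout library 2 and wild-type library 1 together. Leaving out 1 library gave 2 to 3 called members, 807 to 4295 called genes in all (393 to 2286 higher, 377 to 2009 lower, against 2252, 1142 and 1110) and 18 to 53 called genes over the 7 lists, against 34. Under an adjusted p of 0.01 these were 721 (347 higher, 374 lower) and 18. Without both libraries that stand apart they were 7556 (3750 higher, 3806 lower) and 82, and Jak2, at 0.02 before, was called lower at -0.15. The cause was not tested. The sign of Irf9 changed in 8 of 19 alternatives, that of Irf3 in 3 and that of Stat3 in 2, none past the threshold in the changed direction. With the replicate number as a block 1599 genes were called and the calls of the 8 genes did not change. Deviations of same-numbered libraries correlated at 0.17, -0.03 and -0.19, and not every library correlated best with its own number, so the numbers were not taken as pairs. The order of the 8 genes by FPKM was the same by TPM and in each knockout library, and 6 of 8 places were the same in each wild-type library, where Irf1 and Irf3 traded places.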

Other observations

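The motif search was extended to the lists around the 8 factors, as a description with no test. The genes were listed for known induction through these factors, and the sequences are from the reference genome. The shares therefore say nothing about the knockout. In the windows of 300 bases at RefSeq starts, the ISRE core (GAAA, any 2 bases, GAAA) was held by 12 of 29 matched genes induced through ISGF3 and 10 of 19 matched genes induced through IRF1, against 3.99% of 27025 genes with a promoter. It was held by 3 of 30 matched genes induced through STAT3, by 3 of 18 inhibitors and cofactors, by 1 of 16 adaptors and kinases and by none of 13 receptors and Janus kinases. The GAS core (TTC, any 3 bases, GAA) was held by 6 of the 29, 5 of the 19, 6 of the 30, 4 of the 18, 2 of the 16 and 2 of the 13, in the same order, against 9.55% of all genes.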
